A study of Mus musculus with 7 samples.

Results

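Immediate early genes are transcribed within minutes of a growth factor, serum or stress signal, from pre-existing transcription factors and without new protein synthesis. The 10 genes described here were *Egr1*, *Egr2*, *Fos*, *Fosb*, *Fosl1*, *Jun*, *Junb*, *Ier2*, *Ier3* and *Atf3*. They were chosen by name, with earlier results of these data known. All 10 were matched by symbol to 1 Ensembl gene each, of 29267 genes in the tables. Their mRNA level was followed through 7 mouse RNA-Seq libraries, 1 for each kind of cell.

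The pathway works as a relay. Active ERK and other MAP kinases phosphorylate ELK-type factors that sit with the serum response factor SRF on CArG boxes, and CREB-type factors act on TGACG elements. The EGR proteins are zinc finger transcription factors. FOS and JUN proteins pair through leucine zippers to form AP-1, which binds TGANTCA sites, and ATF3 is a related zipper protein induced by stress. IER2 and IER3 are small early response proteins, of which IER3 is linked to cell survival. In pluripotent cells, FGF signalling through ERK is known to promote the exit from the naïve state.

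The cells of 6 libraries came from mouse embryonic fibroblasts (MEFs) of the OG2 line. They carry an Oct4GFP transgene, which reports the pluripotent state, and were infected with retroviruses carrying *c-Myc*, *Klf4*, *Oct4* and *Sox2*. The infected cells were cultured in mES medium (with serum, LIF and vitamin C) or in serum-free 5C medium. The latter held N2 supplement, bFGF, LIF, vitamin C and β-mercaptoethanol. FACS then gave the Oct4GFP+ and Oct4GFP- cells of each medium (written mES-Oct4GFP+, 5C-Oct4GFP+ and so on), labelled with 0 passages. Some 5C-Oct4GFP+ cells were carried on in naïve medium, which holds LIF and inhibitors of MEK and GSK3, or in primed medium, which starts with bFGF and activin A. These are 5C-Oct4GFP+ (naïve) and 5C-Oct4GFP+ (primed), labelled with 20 passages. The study's text also describes a culture of only a few days for cells of these names, so how long they had been in the new medium is not certain. The last library was R1 ESCs-primed, also labelled with 20 passages, from an embryonic stem cell line that did not go through reprogramming and whose primed state was induced on MEF feeder cells. It was then kept on serum-coated plates with CHIR99021, a GSK3 inhibitor, and IWR-1, a WNT pathway inhibitor, in place of bFGF and activin A, and whether this also holds for 5C-Oct4GFP+ (primed) is not stated. The groups thus differ in medium, passage and handling together, each Oct4GFP sort is a mixture defined by a reporter, and no group was replicated. The difference between cultures of 1 kind is therefore unknown, and no p-value is given.

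The labels call all 6 reprogrammed libraries fibroblasts, and the markers go against this for 4 of them. The 8 pluripotency genes listed summed to between 1854 and 7563 TPM in the Oct4GFP+, converted and R1 ESCs-primed libraries, against 412 and 791 TPM in the Oct4GFP- libraries. Of these, *Tdgf1* and *Sall4* were higher in all 5 than in either Oct4GFP- library, while *Dppa5a* made up much of the highest sums (4714 TPM in 5C-Oct4GFP+) and members such as *Nanog* (118 TPM in 5C-Oct4GFP+ (primed), 119.5 TPM in 5C-Oct4GFP-), *Zfp42* (0 against 14.1 TPM there) and *Lin28a* (24.2 TPM in mES-Oct4GFP+ against 75.9 TPM in mES-Oct4GFP-) did not follow the sum. The 10 fibroblast markers summed to between 15.6 and 16.6 TPM in mES-Oct4GFP+, 5C-Oct4GFP+ and 5C-Oct4GFP+ (naïve), to 88.6 TPM in 5C-Oct4GFP+ (primed), to 265 TPM in R1 ESCs-primed, and to 329 and 526 TPM in the Oct4GFP- libraries. TPM, the share of a gene's transcripts among all transcripts, is a level per transcript length. The libraries held between 6108252 and 11496615 estimated reads, and a single read on a gene of typical (median) length stood for 0.0950 to 0.181 TPM. Intervals printed here are exact 95% intervals that describe the sampling of reads only, and differences were taken on log2(TPM + 1), which makes differences of low genes look smaller than they are. A gene was counted as higher or lower at 2-fold on that scale.

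The DNA just upstream of these genes shows which of the relay's elements lie close to the start sites. RefSeq promoters of GRCm38.p6 (250 bases before to 50 after a start) were used for 7 of the 10 genes, all but *Egr1*, *Fosl1* and *Ier2*, with 5 start sites for *Egr2*. The letters TGACG (the core of a CREB site, which the full site TGACGTCA contains), TGACGTCA, TGANTCA, GCGNGGGCG (an EGR site) and the CArG box were searched on both strands. TGACG was found in 5 of the 7 genes, *Egr2*, *Fos*, *Fosb*, *Junb* and *Atf3*, and in 20.8% of 32851 promoters of the same length. The CArG box was found at *Egr2*, against 1.63% of all promoters, and GCGNGGGCG at *Fosb*, against 5.55%. These shares are of single promoters, while *Egr2* was searched at 5 starts and so had more chances of a match. TGACGTCA (1.79% of all promoters) and TGANTCA (7.81%) were in none of the 7. The windows of *Jun* and *Ier3* held none of the 5 motifs in these letters. Bases more than 250 before a start were not searched, so a gene without a match here may hold the element further away. The 5 sequences below are shown because they hold a match. Each is the 150 bases before the start, 5′ to 3′ on the gene's strand, with the matched motifs in capitals.

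*Egr2*, chr10:67537719-67537868, plus strand, before 1 of its 5 starts. The window lies inside the gene, whose span is chr10:67535475-67542188, and outside its exons. Capitals mark TGACG at -111, the CArG box at -72 and TGACG on the opposite strand at -55.
Egr2: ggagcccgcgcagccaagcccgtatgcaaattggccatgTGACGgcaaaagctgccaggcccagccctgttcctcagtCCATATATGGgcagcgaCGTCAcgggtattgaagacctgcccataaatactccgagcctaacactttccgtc
*Fos*, chr12:85473740-85473889, plus strand, outside exons. Capitals mark TGACG at -129 and -66.
Fos: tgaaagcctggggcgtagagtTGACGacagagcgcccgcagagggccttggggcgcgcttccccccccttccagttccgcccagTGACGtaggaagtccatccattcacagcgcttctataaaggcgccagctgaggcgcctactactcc
*Fosb*, chr7:19310046-19310195, minus strand, with 6 bases in its first exon as GENCODE M21 draws it. Capitals mark TGACG at -60 and GCGNGGGCG at -50.
Fosb: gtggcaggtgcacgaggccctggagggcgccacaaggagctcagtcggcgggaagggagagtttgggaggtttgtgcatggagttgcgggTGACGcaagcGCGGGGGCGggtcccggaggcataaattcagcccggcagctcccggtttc
*Junb*, chr8:84978749-84978898, minus strand, outside exons. Capitals mark TGACG at -106.
Junb: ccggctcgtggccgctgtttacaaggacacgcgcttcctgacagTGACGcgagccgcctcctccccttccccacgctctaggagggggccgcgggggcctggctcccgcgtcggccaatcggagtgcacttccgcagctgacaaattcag
*Atf3*, chr1:191183334-191183483, minus strand, with 7 bases in an *Atf3* exon. The window lies inside the gene, whose span is chr1:191170296-191218039. Capitals mark TGACG on the opposite strand at -7.
Atf3: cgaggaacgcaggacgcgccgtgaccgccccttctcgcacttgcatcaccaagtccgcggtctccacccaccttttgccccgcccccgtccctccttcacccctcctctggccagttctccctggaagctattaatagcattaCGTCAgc

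The 10 genes shared an order across the libraries. All 10 had their lowest levels in mES-Oct4GFP+ and 5C-Oct4GFP+ (naïve), an order shared by 20.7% of the 17733 genes with at least 1 TPM in some library. For *Fosb* this order was not resolved by reads. Its ratio of R1 ESCs-primed (0.42 TPM) over mES-Oct4GFP+ (0.33 TPM) was 1.27 (0.308 to 6.255). For 8 of the 10, all but *Fosl1* and *Ier2*, both Oct4GFP- libraries were the highest, as for 22.7% of all genes. Both orders at once held for 8 of the 10 and for 8.50% of all genes. The 5C-Oct4GFP+ library lay above both primed libraries for 9 of the 10, all but *Fosl1*. The share of all genes with this last order was not counted. The level summed over the 10 genes was 93.1 TPM in mES-Oct4GFP+ cells, 94.3 TPM in 5C-Oct4GFP+ (naïve), 311 TPM in R1 ESCs-primed, 350.4 TPM in 5C-Oct4GFP+ (primed), 1251 TPM in 5C-Oct4GFP+, 2947 TPM in 5C-Oct4GFP- and, highest, 2960.2 TPM in mES-Oct4GFP-. In bulk libraries such as these, fewer cells expressing a gene and less of its RNA per cell cannot be told apart.

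**Figure D1:**
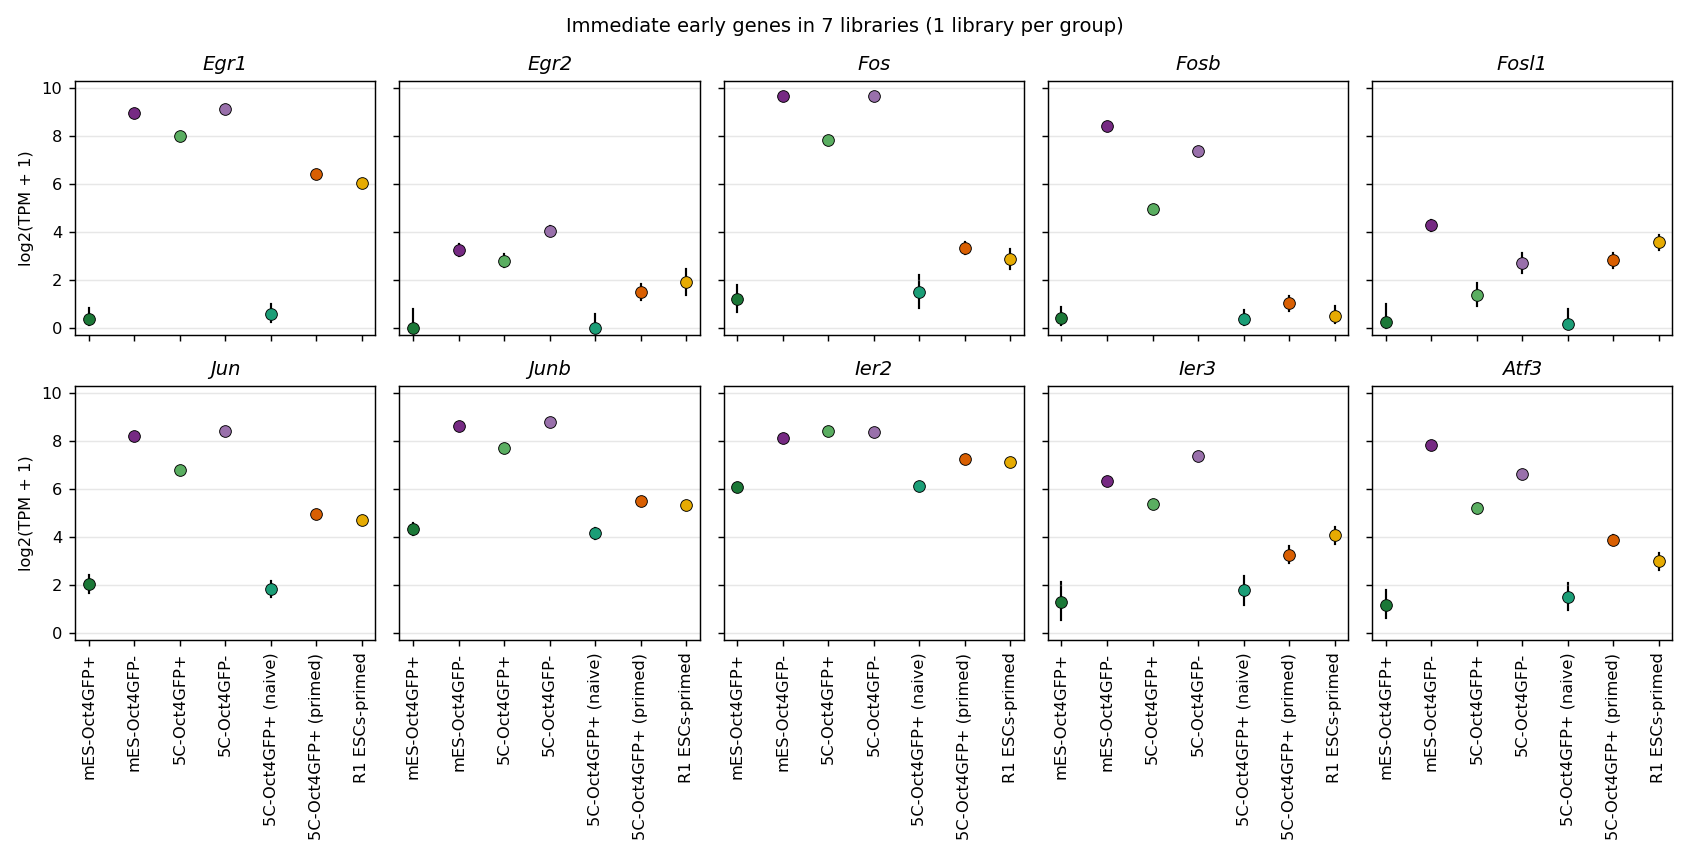
Level of each immediate early gene as log2(TPM + 1) in the 7 libraries, 1 point per library, with vertical lines for the exact 95% interval of read sampling. The lowest points of every panel are mES-Oct4GFP+ and 5C-Oct4GFP+ (naïve), and *Ier2* has the narrowest range, from 65.9 to 338 TPM. For *Fosb*, R1 ESCs-primed is not separated from these by read sampling.

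*Egr1* (ENSMUSG00000038418) encodes a zinc finger factor that is among the first genes to answer ERK. Its level was 0.32 TPM in the mES-Oct4GFP+ library, 500.1 TPM in mES-Oct4GFP- cells, 253 TPM in 5C-Oct4GFP+, 568 TPM in 5C-Oct4GFP-, 0.50 TPM in 5C-Oct4GFP+ (naïve), 83.8 TPM in 5C-Oct4GFP+ (primed) and 64.9 TPM in R1 ESCs-primed. It spanned 1774-fold, the widest range of the 9 genes that had reads in every library. The libraries low in *Egr1* held 4 and 7 reads of it, and the ratio of these 2 levels, 1.56 (0.404 to 7.39), was not resolved at this depth. All other neighbours in the order were separated by more than read sampling.

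*Egr2* (ENSMUSG00000037868, the gene with the CArG box above) encodes a related zinc finger factor known from hindbrain and Schwann cells. It had no read in mES-Oct4GFP+ or 5C-Oct4GFP+ (naïve), where 3 reads would be worth 0.604 and 0.426 TPM. It was at 8.70 TPM in mES-Oct4GFP- cells, 6.0 TPM in 5C-Oct4GFP+, 15.5 TPM in 5C-Oct4GFP-, 1.84 TPM in 5C-Oct4GFP+ (primed) and 2.79 TPM in R1 ESCs-primed. The order of libraries was that of *Egr1* except between both primed libraries, whose *Egr2* levels were not separated by read sampling, with a ratio of R1 ESCs-primed over 5C-Oct4GFP+ (primed) of 1.52 (0.775 to 2.86).

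Within the EGR family (*Egr1* to *Egr4*), *Egr1* held 96.8% of the summed TPM in mES-Oct4GFP- cells, 94.3% in 5C-Oct4GFP- cells and 96.1% in 5C-Oct4GFP+. In both primed libraries its share was smaller, at 88.2% in R1 ESCs-primed and 85.8% in 5C-Oct4GFP+ (primed). *Egr3* made up 6.84% and 9.83% there.

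*Fos* (ENSMUSG00000021250) encodes the founding member of the FOS proteins, which bind DNA only as partners of JUN. Its level was 1.33 TPM in the mES-Oct4GFP+ library, 815 TPM in mES-Oct4GFP- cells, 228 TPM in 5C-Oct4GFP+, 821 TPM in 5C-Oct4GFP-, 1.87 TPM in 5C-Oct4GFP+ (naïve), 9.05 TPM in 5C-Oct4GFP+ (primed) and 6.37 TPM in R1 ESCs-primed. The Oct4GFP- libraries were not separated by read sampling, with a ratio of 5C over mES of 1.01 (0.974 to 1.04). *Fos* ranked 123rd of all genes by TPM in mES-Oct4GFP- and 9066th in 5C-Oct4GFP+ (primed).

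*Fosb* (ENSMUSG00000003545), a close relative with a strong transactivation domain, was at 0.33 TPM in the mES-Oct4GFP+ library, 344 TPM in mES-Oct4GFP- cells, 30.2 TPM in 5C-Oct4GFP+, 165 TPM in 5C-Oct4GFP-, 0.29 TPM in 5C-Oct4GFP+ (naïve), 1.04 TPM in 5C-Oct4GFP+ (primed) and 0.42 TPM in R1 ESCs-primed. It was near its lowest level in the primed libraries too, and 4 libraries held 24 reads or fewer of it. Its level per *Fos* was 0.133 in 5C-Oct4GFP+ cells, 0.201 in 5C-Oct4GFP- cells and 0.422 in mES-Oct4GFP- cells.

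*Fosl1* (ENSMUSG00000024912, encoding FRA1, a FOS relative that lacks the transactivation domain) kept another order. It was at 0.18 TPM in the mES-Oct4GFP+ library, 18.5 TPM in mES-Oct4GFP- cells, 1.61 TPM in 5C-Oct4GFP+, 5.59 TPM in 5C-Oct4GFP-, 0.13 TPM in 5C-Oct4GFP+ (naïve), 6.13 TPM in 5C-Oct4GFP+ (primed) and 11 TPM in R1 ESCs-primed. R1 ESCs-primed thus came second, and 5C-Oct4GFP+ (primed) and 5C-Oct4GFP- were not separated by read sampling, with a ratio of 1.10 (0.724 to 1.68). These values rest on 1 to 133 reads. The gene lies at chr19:5447547-5455946 and overlaps *Ccdc85b* on the other strand, which stood between 14.6 and 46.8 TPM. The libraries do not keep strand, so reads in the overlap cannot be assigned with certainty.

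The makeup of the FOS family followed from these orders. *Fosl1* and *Fosl2* together made up 70.3% of the family's summed TPM in R1 ESCs-primed and 54.2% in 5C-Oct4GFP+ (primed), but 1.36% in 5C-Oct4GFP+, 2.40% in 5C-Oct4GFP- and 6.6% in mES-Oct4GFP-. The sums themselves were 22.9 and 22 TPM in these primed libraries and 262, 1010 and 1241 TPM in the others. In mES-Oct4GFP+ and 5C-Oct4GFP+ (naïve) the family summed to 2.15 and 2.66 TPM, where shares rest on few reads.

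*Jun* (ENSMUSG00000052684), the AP-1 subunit that can also pair with itself, was at 3.08 TPM in the mES-Oct4GFP+ library, 294 TPM in mES-Oct4GFP- cells, 108 TPM in 5C-Oct4GFP+, 337 TPM in 5C-Oct4GFP-, 2.51 TPM in 5C-Oct4GFP+ (naïve), 29.6 TPM in 5C-Oct4GFP+ (primed) and 25.3 TPM in R1 ESCs-primed. Of the 10 genes it was closest to the mean of the others, with r = 0.996 of log2(TPM + 1) over the 7 libraries. The gene, at chr4:95049034-95052222, overlaps *Junos* on the other strand, which was at most at 4.12 TPM.

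*Junb* (ENSMUSG00000052837), a JUN protein that often restrains *Jun*, kept a higher floor. It was at 19.2 TPM in the mES-Oct4GFP+ library, 397 TPM in mES-Oct4GFP- cells, 209 TPM in 5C-Oct4GFP+, 443 TPM in 5C-Oct4GFP-, 16.7 TPM in 5C-Oct4GFP+ (naïve), 44.6 TPM in 5C-Oct4GFP+ (primed) and 38.6 TPM in R1 ESCs-primed. Its order was that of *Jun*, over a 26.6-fold range against 134-fold. *Junb* lies at chr8:84974484-84978718 and overlaps *Prdx2*, a peroxidase gene at between 337 and 691 TPM, and what its neighbour's reads add to the *Junb* level was not tested.

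In the JUN family, *Jund*, the member that depends least on stimulation, held a larger share where *Jun* was low. It held 62.1% of the family's summed TPM in mES-Oct4GFP+ and 61.4% in 5C-Oct4GFP+ (naïve), and 48.2% in R1 ESCs-primed beside 52.1% in 5C-Oct4GFP+ (primed), against 16.8% to 29.4% in the other libraries. The sum of the FOS family over that of the JUN family was 0.0365 in mES-Oct4GFP+ cells and 0.0535 in 5C-Oct4GFP+ (naïve), 0.142 and 0.185 in the primed libraries, 0.582 in 5C-Oct4GFP+, and 1.08 and 1.31 in the Oct4GFP- libraries. FOS family mRNA thus outweighed JUN family mRNA per length in both Oct4GFP- libraries alone.

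**Figure D2:**
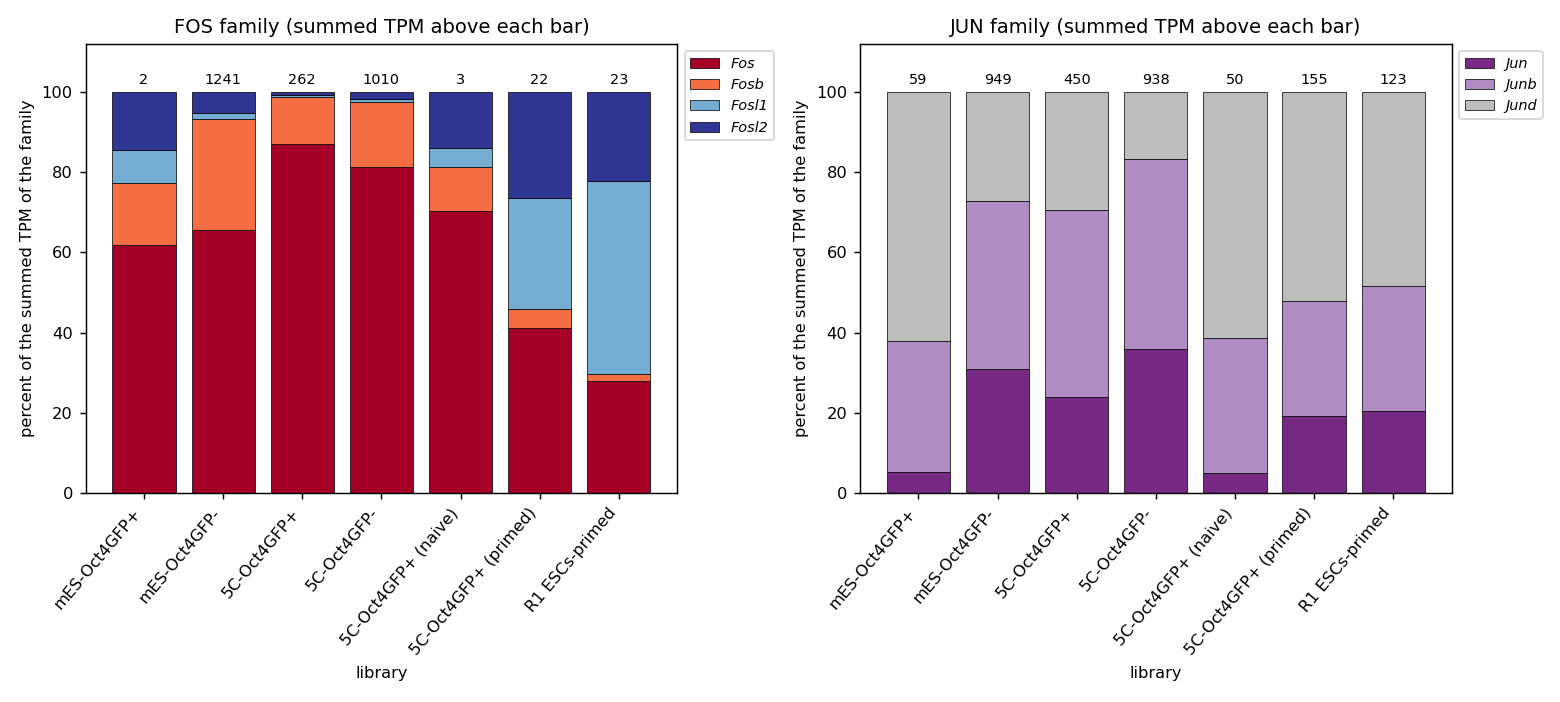
Share of each gene in the summed TPM of the FOS family (left) and the JUN family (right) in the 7 libraries, with the summed TPM above each bar. *Fosl1* and *Fosl2* make up 54.2% and 70.3% of the FOS family in the primed libraries, and *Jund* over 60% of the JUN family in mES-Oct4GFP+ and 5C-Oct4GFP+ (naïve).

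*Ier2* (ENSMUSG00000053560) was the steadiest of the 10, over a 5.13-fold range. It was at 65.9 TPM in the mES-Oct4GFP+ library, 277 TPM in mES-Oct4GFP- cells, 338 TPM in 5C-Oct4GFP+, 333 TPM in 5C-Oct4GFP-, 68.1 TPM in 5C-Oct4GFP+ (naïve), 152 TPM in 5C-Oct4GFP+ (primed) and 139 TPM in R1 ESCs-primed. It is the gene of the 10 whose highest library was 5C-Oct4GFP+, although the step to 5C-Oct4GFP- was within read sampling, with a ratio of 1.02 (0.959 to 1.08). *Ier2* made up 70.8% and 72.2% of the 10 genes' summed TPM in mES-Oct4GFP+ and 5C-Oct4GFP+ (naïve), and 9.36% in mES-Oct4GFP-.

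*Ier3* (ENSMUSG00000003541) was at 1.42 TPM in the mES-Oct4GFP+ library, 79.3 TPM in mES-Oct4GFP- cells, 40.6 TPM in 5C-Oct4GFP+, 163 TPM in 5C-Oct4GFP-, 2.40 TPM in 5C-Oct4GFP+ (naïve), 8.57 TPM in 5C-Oct4GFP+ (primed) and 15.7 TPM in R1 ESCs-primed. It was the one gene at least 2-fold higher in the 5C-Oct4GFP- library than in the mES-Oct4GFP- library. *Atf3* (ENSMUSG00000026628) went the other way between these libraries. It was at 1.26 TPM in the mES-Oct4GFP+ library, 226 TPM in mES-Oct4GFP- cells, 35.4 TPM in 5C-Oct4GFP+, 96.2 TPM in 5C-Oct4GFP-, 1.82 TPM in 5C-Oct4GFP+ (naïve), 13.7 TPM in 5C-Oct4GFP+ (primed) and 6.88 TPM in R1 ESCs-primed.

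The first comparison asks what the medium does to cells that had switched on Oct4GFP. Each of the 10 genes had a higher level in the 5C-Oct4GFP+ library than in its mES counterpart, where 13.7% of the 15196 genes tested were at least 2-fold higher and 13.5% lower. The median difference was 4.06 on the log2(TPM + 1) scale, against -0.06 over all genes tested. *Egr1* was 791-fold higher (314 to 2950), *Fos* 171-fold (90.2 to 376), *Fosb* 91.6-fold (36.0 to 341) and *Jun* 35.1-fold (24.7 to 51.3). *Egr2* was at least 9.93-fold higher, against the 3 reads that served as a floor in mES-Oct4GFP+. *Fosl1* differed least, by 1.15 on the log2(TPM + 1) scale, and its ratio of 8.94 rests on 15 reads and 1 read (1.35 to 368). It was under 2-fold with a pseudocount of 5 (0.35) and with FPKM (0.77) and did not pass a minimum TPM of 5, so that 9 genes were counted under each of these. *Egr1*, *Fos*, *Fosb*, *Ier3* and *Atf3* are in the study's own list of 5C-state markers, which was chosen on these libraries, so their direction is not independent evidence. Only part of that list was read here, and whether it holds the other 5 is not known.

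Markers of other cell types stood beside this difference as follows. The fibroblast markers summed to 16.0 TPM in 5C-Oct4GFP+ against 15.6 TPM, with 2 of the 10 higher and 2 lower. The 6 keratinised epithelium markers summed to 238 against 82.8 TPM, of which *Krt17* alone was at 121 TPM against 0, and *Krt5*, *Krt14* and *Krt6a* were between 0.94 and 2.82 TPM against 0. The macrophage markers summed to 47.1 against 13.1 TPM, of which *Cd68* made up 42.7 and 12.9 TPM and *Cd14* 4.09 TPM (35 reads) and 0, with *Csf1r*, *Adgre1* and *Lyz2* at 0 in 5C-Oct4GFP+. The 5 endothelial markers summed to 55.5 against 105 TPM, most of it *Pecam1*, which naïve pluripotent cells also express, with *Tek* at 22.7 against 7.49 TPM and *Kdr* at 4.04 against 0.82 TPM. Heat shock genes, some of which also answer cell dissociation, summed to 10147 against 12178 TPM, while the inducible *Hspa1a* was at 5.56 against 1.04 TPM. The part of these cell types, or of dissociation, in the level of the 10 genes was not tested.

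Between the Oct4GFP- libraries the medium went with smaller differences. Set against the mES-Oct4GFP- library, 1 of the 10 genes was higher by 2-fold or more in 5C-Oct4GFP- (9.68% of the 15859 genes tested) and 3 were lower (10.1%), with a median difference of 0.17 against 0.03 over all genes. *Ier3* was 2.06-fold higher (1.82 to 2.34). *Fosb* was 2.08-fold lower (1.99 to 2.18), *Atf3* 2.35-fold lower (2.15 to 2.57) and *Fosl1* 3.30-fold lower (2.29 to 4.84). *Egr2* was 1.78-fold higher (1.39 to 2.28) and did not reach 2-fold. The ratios of *Egr1*, *Fos*, *Jun*, *Junb* and *Ier2* lay between 1.01 (*Fos*) and 1.2 (*Ier2*). The count of genes higher was 0 after median-ratio rescaling or with a pseudocount of 5. Fibroblast markers were also lower here, 6 of 10 by at least 2-fold, with a sum of 329 against 526 TPM, and their part in these differences was not tested.

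The next pair of comparisons sets Oct4GFP+ cells against Oct4GFP- cells of the same medium. In mES medium all 10 genes were lower in the positive cells, where 28.8% of the 16294 genes tested were lower and 17.9% higher. Their median difference was -5.61, against -0.15 over all genes. *Egr1* was 1563-fold lower (620 to 5827), *Fosb* 1043-fold (411 to 3867), *Fos* 613-fold (323 to 1343) and *Atf3* 179-fold (91.1 to 417), while *Ier2* was 4.20-fold lower (3.73 to 4.75). Heat shock genes summed to 12178 against 5978 TPM, with 3 of 10 higher and 2 lower. The 2 lower were *Hspa1a*, at 1.04 against 18.65 TPM, and *Hspa1b*, at 5.31 against 31.75 TPM. The part of dissociation in the level of the 10 immediate early genes was not tested.

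In 5C medium, 9 of the 10 genes were lower in the positive cells and none higher, where 22.6% of the 15675 genes tested were lower and 8.45% higher. They had a median difference of -1.38, against -0.25 over all genes. The span was narrow, from 2.11-fold lower for *Junb* (2.0 to 2.23) to 5.47-fold lower for *Fosb* (5.01 to 5.97), and *Ier2* was level. Median-ratio rescaling, which removes a shift of -0.157 on the log2 scale between these libraries, left 8 genes lower, with *Junb* at -0.92. FPKM also left 8, with *Junb* at -0.98, and a pseudocount of 5 left 7, without *Egr2* and *Fosl1*. The sum of the heat shock genes was 10147 against 6680 TPM, while *Hspa1a* was at 5.56 against 12.1 TPM. What dissociation adds here was not tested.

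In 5C medium the immediate early genes and the fibroblast markers differed in their medians, while their ranges overlapped. As a percentage of the 5C-Oct4GFP- level, the 10 genes in 5C-Oct4GFP+ ran from 18.3% (*Fosb*) to 102% (*Ier2*), with a median of 34.4%. The 9 fibroblast markers with at least 1 TPM in 5C-Oct4GFP- ran from 0.309% (*Postn*) to 25% (*Pdgfra*), with a median of 3.34%. *Pdgfra* thus lay above *Fosb*. The 6 keratinised epithelium markers ran from 2.15% (*Krt5*) to 102% (*Sfn*), with a median of 8.47%, and also overlapped the 10 genes. *Krt17*, the most abundant of them in 5C-Oct4GFP+, was at 121 against 139 TPM. In mES medium the medians were 0.766% for the 10 genes, 2.73% for the fibroblast markers and 0% for 5 keratinised epithelium markers. Relative to the negative cells, the median of the 10 genes lay above that of the fibroblast markers in 5C medium and below it in mES medium. The part of these cell types in the level of the 10 genes was not tested.

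**Figure D3:**
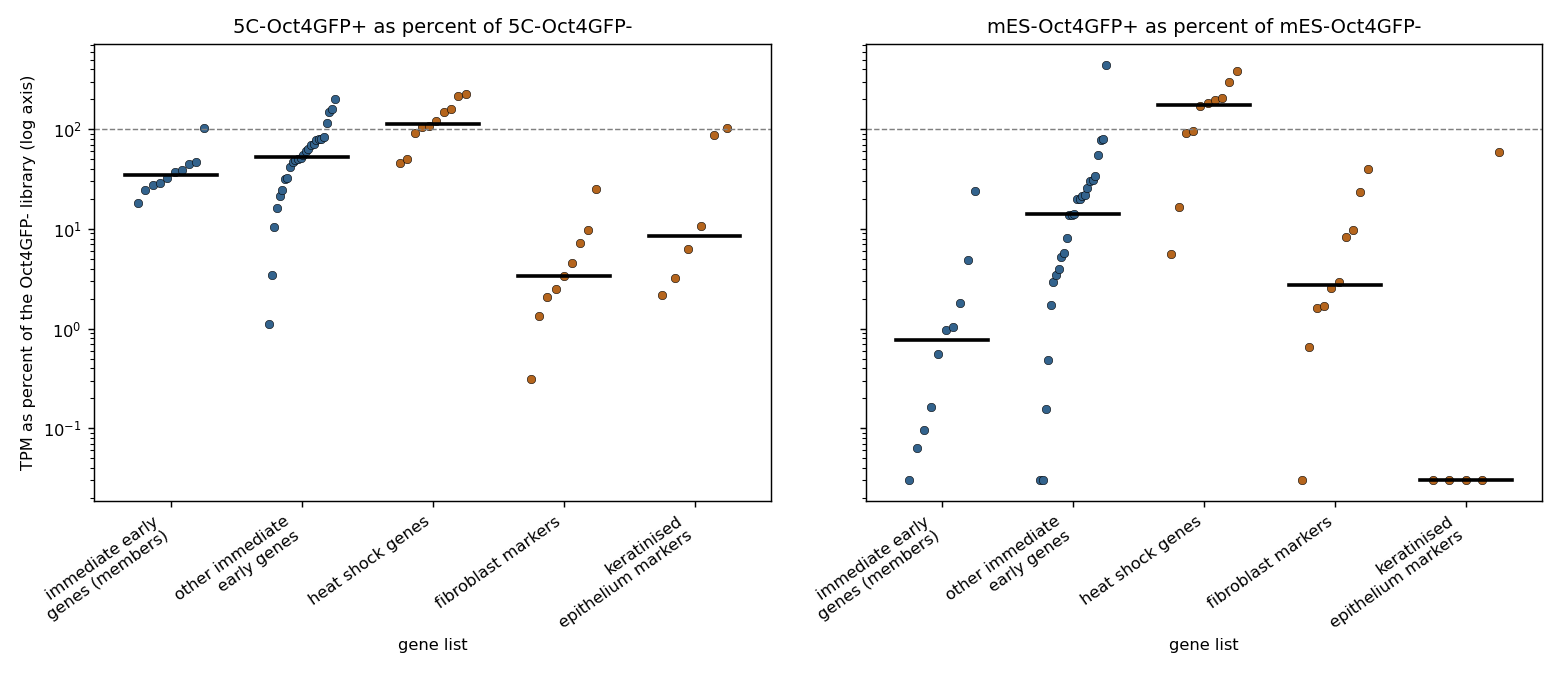
TPM in Oct4GFP+ cells as a percentage of TPM in Oct4GFP- cells, on a log axis, in 5C medium (left) and mES medium (right), 1 point per gene with at least 1 TPM in the negative library and a bar at the median. Genes listed at 0 are drawn at the lower edge. In 5C medium the median is 34.4% for the 10 genes and 3.34% for fibroblast markers, and in mES medium 0.766% and 2.73%.

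The conversion comparisons ask what happens to the 5C-Oct4GFP+ cells in other media. In naïve medium all 10 genes were lower than in 5C-Oct4GFP+, where 17.5% of the 14863 genes tested were lower and 10% higher. The median difference was -3.65, or -3.75 with *Egr2* at its bound of at least 14.1-fold lower, against -0.10 over all genes. *Egr1* was 506-fold lower (245 to 1260), *Fos* 122-fold (61.7 to 282), *Fosb* 104-fold (44.8 to 325), *Jun* 43-fold (31.1 to 61.2) and *Junb* 12.6-fold (10.6 to 15.0). *Fosl1* was under 2-fold lower with a pseudocount of 5 (-0.37) and with FPKM (-0.81), and did not pass a minimum TPM of 5. The fibroblast markers summed to 16.6 TPM in naïve medium and 16.0 TPM before. Some other markers were lower along with the 10 genes. The keratinised epithelium markers summed to 76.6 against 238 TPM, with *Krt17* at 0 against 121 TPM. The macrophage markers summed to 17.6 against 47.1 TPM, with *Cd14* at 0 against 4.09 TPM. The endothelial markers summed to 57.7 against 55.5 TPM. Among them *Tek* (4.06 against 22.7 TPM) and *Kdr* (0.40 against 4.04 TPM) were lower, while *Pecam1* was higher (53.2 against 28.6 TPM). Heat shock genes summed to 11951 against 10147 TPM, while *Hspa1a* was at 0.95 against 5.56 TPM. The part of these cell types, or of dissociation, in the difference was not tested.

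In primed medium 9 of the 10 genes were lower than in 5C-Oct4GFP+ and *Fosl1* was higher, where 16.1% of the 15067 genes tested were lower and 13.7% higher. Across the 10 genes the median was -1.71, against 0.06 over all genes. *Fosb* was 29.1-fold lower (19.4 to 45.9) and *Fos* 25.2-fold (20.8 to 30.7). The other 7 lay in a band from 2.23-fold lower for *Ier2* (2.09 to 2.38) to 4.73-fold lower for *Ier3* (3.54 to 6.44), with *Egr1* at 3.02-fold (2.85 to 3.20). *Fosl1* was 3.81-fold higher (2.15 to 7.21), on 63 reads against 15, and with a pseudocount of 5 neither it nor *Egr2* reached 2-fold. *Fosl1* is in the study's list of primed-state markers, chosen on the study's own RNA-Seq, and its direction is not independent evidence. Fibroblast markers were higher as well, 9 of 10 by at least 2-fold, with a sum of 88.6 against 16.0 TPM, and their part in the level of *Fosl1* was not tested. Keratinised epithelium markers were lower, with a sum of 65.1 against 238 TPM and *Krt17* at 1.83 against 121 TPM, as were macrophage markers, at 11.7 against 47.1 TPM, and *Tek*, at 0.62 against 22.7 TPM. The heat shock genes summed to 8607 against 10147 TPM, with *Hspa1a* at 0.51 against 5.56 TPM. The part of these cell types, or of dissociation, in the 9 lower genes was not tested.

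The converted libraries can also be set against each other, with values only, since both comparisons above share the 5C-Oct4GFP+ library. *Egr1* was 168-fold lower in 5C-Oct4GFP+ (naïve) than in 5C-Oct4GFP+ (primed) (81.1 to 417), *Fosl1* 47.2-fold (8.19 to 1898, 1 read against 63) and *Jun* 11.8-fold (8.44 to 16.9). *Fos* was 4.84-fold lower (2.37 to 11.5), *Fosb* 3.59-fold (1.35 to 12.1) and *Ier2* 2.23-fold (2.01 to 2.49). *Egr1* and *Fos*, at 253 and 228 TPM in 5C-Oct4GFP+, thus stood at 83.8 and 9.05 TPM in the primed library.

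The last comparisons set each converted library beside its closest reference. Between 5C-Oct4GFP+ (primed) and R1 ESCs-primed none of the 10 genes reached 2-fold in either direction, where 2.30% of the 14600 genes tested were higher and 5.09% lower. The median difference was 0.21, against -0.03 over all genes. The intervals excluded 1 for 5 genes. *Atf3* was 2.0-fold higher in the converted cells by TPM (1.44 to 2.82), *Egr1* 1.29-fold (1.18 to 1.41) and *Jun* 1.17-fold (1.01 to 1.35), while *Ier3* was 1.84-fold lower (1.27 to 2.67) and *Fosl1* 1.79-fold lower (1.25 to 2.56). Fibroblast markers were lower in the converted cells for 8 of 10, which summed to 88.6 against 265 TPM.

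Between 5C-Oct4GFP+ (naïve) and mES-Oct4GFP+ again none of the 10 reached 2-fold, and 6 of them passed the minimum of 1 TPM in either library that all 10 passed in the other comparisons. Here 2.49% of the 14477 genes tested were higher and 6.27% lower. The median difference was 0.02, against -0.16 over all genes. Every interval held 1 for the 9 genes with reads, from a ratio of 0.722 for *Fosl1* (0.00898 to 55.3) to 1.69 for *Ier3* (0.555 to 6.13). For *Ier2*, with 466 and 318 reads, the ratio was 1.03 (0.894 to 1.2), and for *Junb* 0.867 (0.672 to 1.12). For genes with under 20 reads, differences of several fold were not detectable at this depth.

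**Figure D4:**
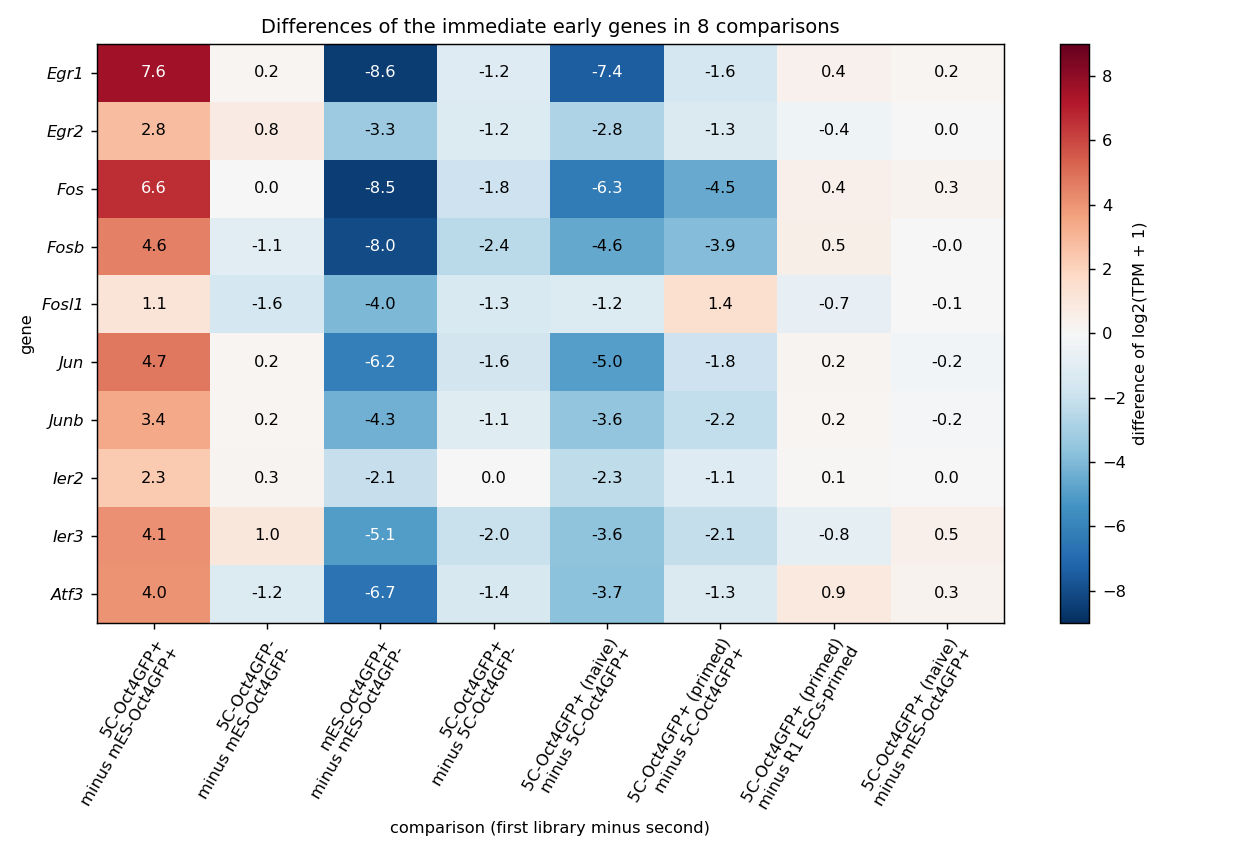
Difference of log2(TPM + 1) for each gene in the 8 comparisons, first library minus second, with blue for lower and red for higher. *Fosl1* is the only gene with a positive value in 5C-Oct4GFP+ (primed) minus 5C-Oct4GFP+, at 1.45, and the last 2 columns hold no difference of 1 or more.

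Of 26 other immediate early genes, 17 had their lowest levels in mES-Oct4GFP+ and 5C-Oct4GFP+ (naïve), 19 their highest in the Oct4GFP- libraries, and 14 both. Over all genes with at least 1 TPM in some library, these shares were 20.7%, 22.7% and 8.50%. In 5C-Oct4GFP+ against mES-Oct4GFP+, 15 were at least 2-fold higher and none lower (13.7% and 13.5% of all genes tested), with a median difference of 1.32 against -0.06 over all genes. *Zfp36*, which encodes tristetraprolin, a protein that speeds the decay of many early mRNAs, was 24.8-fold higher (16.8 to 38.1), at 112 against 4.54 TPM. The orphan nuclear receptor gene *Nr4a1* was at 104 against 7.88 TPM, the neuronal early gene *Arc* at 37.5 against 4.13 TPM and the small MAF gene *Maff* at 18.7 against 1.95 TPM.

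In 5C-Oct4GFP+ (naïve) against 5C-Oct4GFP+, 17 of 26 were lower and none higher (17.5% and 10% of all genes tested), *Zfp36* at 3.20 TPM and *Trib1*, a pseudokinase gene, at 8.01 against 64.6 TPM. In 5C-Oct4GFP+ (primed), 5 were lower and 4 higher, shares near the 16.1% and 13.7% of all genes tested, with a median difference of -0.52 against 0.06. *Zfp36* was at 6.75 TPM, *Arc* at 1.92 TPM and *Gadd45b*, a stress sensor gene, at 4.13 against 42 TPM.

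**Figure D5:**
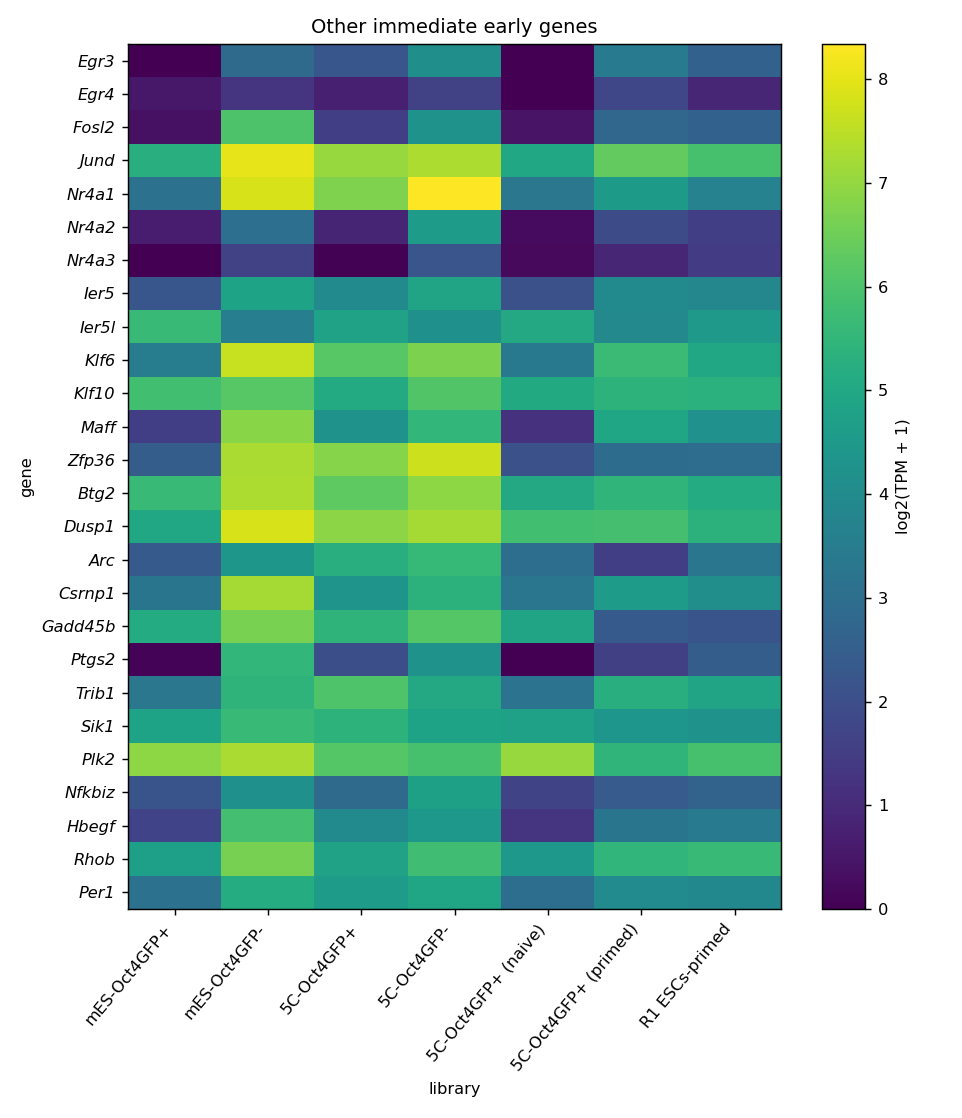
Level of 26 other immediate early genes as log2(TPM + 1) in the 7 libraries, with yellow for high levels. *Zfp36* is at 112 TPM in 5C-Oct4GFP+ and at 6.75 and 6.81 TPM in the primed libraries, while *Ier5l* and *Plk2* are among the genes that do not follow the order of the 10.

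Of 14 measured genes that act upstream (kinases of the MAP kinase pathways, SRF, its partners, and *Creb1*), 3 had at least 2-fold higher levels in the 5C-Oct4GFP+ library than in mES-Oct4GFP+ and none lower (13.7% and 13.5% of all genes tested). *Elk3*, an SRF partner, was at 13.5 against 2.54 TPM, *Mapk3*, encoding ERK1, at 86.5 against 34.4 TPM, and *Srf* at 49.6 against 21.7 TPM. *Mapk14* went the other way, at 43.9 against 88.6 TPM. It was 2.02-fold lower by TPM (1.83 to 2.22), and -0.997 on the log2(TPM + 1) scale, just short of the count. The 3 higher genes, *Elk3*, *Mapk3* and *Srf*, were lower in 5C-Oct4GFP+ (naïve), at 3.38, 30.1 and 19.0 TPM, and none of the 14 was higher (17.5% and 10% of all genes tested). None of the 14 differed by 2-fold between 5C-Oct4GFP+ (primed) and 5C-Oct4GFP+, where 13.7% of all genes tested were higher and 16.1% lower. *Mapk3* was at 151 TPM in 5C-Oct4GFP+ (primed). These are mRNA levels, and kinase activity was not measured.

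Of 14 partners of AP-1 and corepressors of EGR proteins, 5 were higher and 2 lower in 5C-Oct4GFP+ against mES-Oct4GFP+ (13.7% and 13.5% of all genes tested). *Fosl2*, *Jund* and *Maff* are in this list and also among the other immediate early genes above, so the counts of these lists share genes. Among the higher was *Jdp2*, a zipper protein that represses AP-1, at 21 against 4.45 TPM. *Jdp2* was at 4.18 TPM in 5C-Oct4GFP+ (primed). *Nab1* and *Nab2*, whose proteins bind and repress EGR1, went the other way on conversion, from 6.52 and 10.6 TPM in 5C-Oct4GFP+ to 28.6 and 28.2 TPM in 5C-Oct4GFP+ (primed).

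Of 12 genes known as AP-1 targets, 6 had 2-fold or higher levels in 5C-Oct4GFP+ (primed) cells than before conversion and 1 a lower one (13.7% and 16.1% of all genes tested), with a median difference of 1.33 against 0.06 over all genes, while *Fos* was 25.2-fold lower there. The stromelysin gene *Mmp3* was at 32.9 against 0.10 TPM (357 reads against 1), the gelatinase gene *Mmp9* at 5.98 against 0.11 TPM, the decorin gene *Dcn* at 7.89 against 0.87 TPM and the urokinase gene *Plau* at 8.33 against 1.47 TPM. All 4 were higher still in R1 ESCs-primed, at 74.4, 15.2, 25.7 and 30.7 TPM, the primed library with the higher *Fosl1* level and also the higher sum of fibroblast markers. Which of these goes with the targets cannot be told apart in 2 libraries.

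The genes outside the 10 whose pattern was most like their mean were sought by Pearson's r of log2(TPM + 1) over the 7 libraries, among 11794 genes with at least 10 TPM in some library. They were *Id2* (r = 0.996), *Wwc1* (0.995), *Per1* (0.994), *Tgm3* (0.993), *Rab8b* (0.991), *Pde9a* (0.990), *Rab3d* (0.989) and *Ssh3* (0.988). *Id2*, which encodes an inhibitor of helix-loop-helix factors, ran from 11.5 TPM in 5C-Oct4GFP+ (naïve) to 137 TPM in mES-Oct4GFP-. *Per1*, a clock gene with known immediate early behaviour, ran from 7.11 to 34.6 TPM. Among the 10 genes themselves, the 45 pairs had r from 0.518 (*Fosb* with *Fosl1*) to 0.997, with a median of 0.944, and 32 pairs were over 0.9. The share of all gene pairs over 0.9 was not counted, so whether 32 of 45 is unusual is not known. *Fosl1* was the least like the mean of the others, with r = 0.673. The 7 points share libraries, media and depth, and these r values are descriptions.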

How the data were processed

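RNA was extracted with TRIzol and made into TruSeq v2 libraries, which do not keep strand, for an Illumina MiSeq. The authors aligned the reads to a transcriptome and quantified them with RSEM. The submitters' processing notes name Bowtie and mm10, with versions not given in the sources used here. Per Ensembl gene, the deposited expected counts are the reads RSEM estimated, not normalized. The deposited TPM values were scaled by the authors to the same sum in each library, and the deposited FPKM values to mapped fragments per length. Gene totals per library were between 6108252 and 11496615.

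Groups were taken from the labels, with 1 library each and so no test. Levels were compared as the difference of log2(TPM + 1), with genes counted from 2-fold. Ratios have exact Clopper-Pearson 95% intervals, and single levels exact Poisson intervals, and both took the expected counts as whole numbers after rounding. Shares of all genes leave out those under 1 TPM in both libraries compared. For a gene without reads, 3 counts per library were the floor. The members and gene lists were chosen with earlier results of these data known. All 10 members are named, with up to 4 genes per other list and comparison by largest difference and the 8 genes most like the members' mean; members of marker lists, family members, *Ier5l*, *Plk2* and *Zfp36* in other comparisons were named after their values were seen. *Rps6ka1*, *Rps6ka3* and *Rps6ka5* were not matched and are not analysed here, and *Klf4* and *Myc*, carried by the retroviruses, were left out of the lists. Symbols were matched for 28756 of 29267 identifiers, coordinates are from GENCODE M21 (GRCm38) and promoters from RefSeq (GRCm38.p6). The alternatives were pseudocounts of 0.1 and 5, a minimum TPM of 5 or none, median-ratio rescaling, and FPKM. The scripts were tested on simulated data (matplotlib 3.10.9, scipy 1.17.1, pandas 2.3.3 and numpy 2.4.6 under Python 3.11.15).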

Additional observations from a re-analysis of the deposited data

Results flagged for a closer look

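Some genes differed in opposite directions under the same contrast, with 1 library on each side, so the difference was not tested. For 5C against mES medium, *Fosb* was higher in the Oct4GFP+ cells and lower in the Oct4GFP- cells, and the 2 differences were 5.61 apart on the log2(TPM + 1) scale. *Atf3* did likewise, by 5.23, and *Fosl1* by 2.71. On conversion of 5C-Oct4GFP+ cells, *Fosl1* was lower in naïve medium and higher in primed medium, and the naïve difference minus the primed one was -2.66; both share the 5C-Oct4GFP+ library.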

How the results depend on the processing

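Of 144 recomputed medians and counts over the 10 genes, 136 stayed (counts within 1.5 times, medians within the average read-sampling interval of the middle pair of genes), 8 moved and none reversed direction; of 480 recomputed differences of single genes, 443 stayed, 37 moved and none reversed. With a pseudocount of 5 the median difference was 2.78 for 5C-Oct4GFP+ against mES-Oct4GFP+, -4.63 for mES-Oct4GFP+ against mES-Oct4GFP-, and -2.68 for 5C-Oct4GFP+ (naïve) against 5C-Oct4GFP+; with 0.1 the last was -4.79. The count of genes higher became 0 with a pseudocount of 5 for 5C-Oct4GFP- against mES-Oct4GFP- and for 5C-Oct4GFP+ (primed) against 5C-Oct4GFP+, and 0 with median-ratio rescaling for the former. With a pseudocount of 0.1, 1 gene was higher in 5C-Oct4GFP+ (primed) than in R1 ESCs-primed. A larger pseudocount shrinks low genes by construction. A minimum TPM of 5 and FPKM each took *Fosl1* out of the counts of 10 for 5C-Oct4GFP+ against mES-Oct4GFP+ and for 5C-Oct4GFP+ (naïve) against 5C-Oct4GFP+, leaving 9, and FPKM brought the first median to 3.65. Median-ratio rescaling removed a shift of -0.157 for 5C-Oct4GFP+ against 5C-Oct4GFP- and of -0.129 for 5C-Oct4GFP+ (naïve) against mES-Oct4GFP+, and under 0.1 elsewhere. No paired analysis was possible because each group has 1 library. Depth limits the genes with few reads, chiefly in mES-Oct4GFP+ and 5C-Oct4GFP+ (naïve), and the spread between cultures is unknown.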

Other observations

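Among the other immediate early genes, in mES-Oct4GFP+ against mES-Oct4GFP-, 21 of the 26 were at least 2-fold lower and 1 was higher (28.8% and 17.9% of all genes tested), with a median difference of -2.25 against -0.15 over all genes. *Ptgs2*, which encodes the inducible cyclooxygenase, was at 0.07 against 44.6 TPM, *Fosl2* at 0.31 against 63.5 TPM and *Maff* at 1.95 against 114 TPM. In 5C-Oct4GFP+ against 5C-Oct4GFP-, 9 were lower and none higher (22.6% and 8.45% of all genes tested), with a median difference of -0.89 against -0.25. Between the Oct4GFP- libraries, 6 were lower in 5C medium and 3 higher (10.1% and 9.68%). The EGF family ligand gene *Hbegf* was at 21 against 56.3 TPM there, *Fosl2* at 18.6 against 63.5 TPM, and *Nr4a2*, an orphan nuclear receptor gene, at 23.2 against 7.26 TPM.

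Of the 12 AP-1 target genes, 7 were lower and 2 higher in 5C-Oct4GFP+ against 5C-Oct4GFP- (22.6% and 8.45% of all genes tested), with *Cd44*, a hyaluronan receptor gene, at 3.05 against 67 TPM and *Spp1*, the osteopontin gene, at 661 against 48.2 TPM. *Plaur*, the urokinase receptor gene, stood at 1.36 TPM in mES-Oct4GFP+ and 1.60 TPM in 5C-Oct4GFP+ (naïve), and between 18.1 and 88.4 TPM in the other 5 libraries. With 1 library per group none of these differences was tested.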
